A study of Mus musculus with 3 samples.

Results

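The genes described are 9 alarmins and secreted proteins of wound inflammation, namely S100a8, S100a9, S100a4, S100a6, S100a10, S100a11, Saa3, Lcn2 and Slpi. They are a list of names chosen with earlier results of these data known, each symbol had 1 feature, and together they are 9 of the 19070 genes with a probe in the deposited tables. Their RNA was counted in mouse skin wounds by single-cell RNA profiling of fixed cells with gene-specific probes (10x Genomics GEM-X Flex), in 3 libraries of 1 per group. All 3 came from female C57BL/6J mice wounded at postnatal day 50 with a splinted full-thickness excision of 5 mm on the back, taken at day 5 with a margin of 2 mm. In the AN-GelMA library the wound had received 20 µL of gelatin methacryloyl hydrogel loaded with apoptotic neutrophils, crosslinked by ultraviolet light for 1 min. The GelMA library came from a wound given the same volume of hydrogel without cells, and the untreated library from a wound given no gel. How many mice went into a library is not given in the labels, and neutrophils delivered with the gel cannot be told apart from those of the host. The files of the AN-GelMA library carry the word heat and the title of the untreated sample says sham, whereas their labels, followed here, give apoptotic neutrophils and a 5 mm wound without gel.

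The deposited tables held 9648 barcodes in AN-GelMA, 11449 in GelMA and 6073 in untreated, with median depths of 1134, 1485 and 1125 unique molecular identifiers (UMIs, each a counted molecule) in those libraries. After filtering, 9094, 10687 and 5721 cells remained in AN-GelMA, GelMA and untreated, which were clustered without the 9 genes and without any other S100 or serum amyloid gene. Clusters were named from lists of marker genes, so that neutrophils, for example, stands for neutrophil-like cells. Between 94 and 135 cell barcodes were shared by each pair of libraries. The libraries differed in their cells: inner root sheath cells of the hair follicle were 0.0770% of cells in AN-GelMA, 11.04% in GelMA and 1.10% in untreated, and macrophages were 16.9%, 3.59% and 11.4%. Levels are a gene's UMIs per 1000000 UMIs (CPM) of the cells of a class summed within a library. Intervals are exact 95% intervals that cover counting error only. With 1 library per group no difference has a replicate check and no test between groups was possible, so a gene is called higher or lower when its CPM differ by 1.5 times or more and the 2 libraries hold at least 20 of its UMIs.

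S100 proteins are small calcium-binding proteins. S100A8 and S100A9 form calprotectin, which fills the cytosol of neutrophils, binds zinc and manganese, and acts on the receptors TLR4 and RAGE when released, and both are induced in keratinocytes of injured epidermis. Serum amyloid A3 is an acute phase protein that mice make outside the liver, lipocalin 2 withholds iron from bacteria by binding their siderophores, and secretory leukocyte protease inhibitor blocks neutrophil elastase. All 6 S100 genes described lie on chromosome 3, where S100a8 and S100a9 are neighbours, whereas Lcn2 and Slpi are on chromosome 2 and Saa3 is on chromosome 7.

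The sequences just upstream of S100a8, S100a9 and Saa3 are given because the first pair varied together over cell classes and libraries and Saa3 marked a different cell population. They are the 250 bases before the RefSeq transcript start in GRCm38.p6, a different build from the GRCm39 of the deposited tables, and are written 5′ to 3′ on the gene's own strand at chr3:90668821-90669070 (plus strand, S100a8), chr3:90695722-90695971 (minus strand, S100a9) and chr7:46715677-46715926 (minus strand, Saa3). Capitals mark matches on either strand to TATAAA, the TATA box, or to TTNNGCAA, a core of C/EBP sites. The TATA match starts 30 bases before the S100a8 start, and the C/EBP-type matches start 236 bases before the start of S100a9 and 99 before that of Saa3.
S100a8: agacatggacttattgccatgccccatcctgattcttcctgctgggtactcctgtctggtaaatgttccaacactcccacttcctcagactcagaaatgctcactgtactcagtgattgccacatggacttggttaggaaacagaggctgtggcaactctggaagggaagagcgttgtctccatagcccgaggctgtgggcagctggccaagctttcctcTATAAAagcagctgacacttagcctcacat
S100a9: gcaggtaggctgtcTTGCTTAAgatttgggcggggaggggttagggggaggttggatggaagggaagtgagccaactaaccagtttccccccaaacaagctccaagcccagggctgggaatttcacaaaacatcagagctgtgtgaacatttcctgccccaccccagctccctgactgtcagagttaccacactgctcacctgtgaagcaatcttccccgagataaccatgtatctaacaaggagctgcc
Saa3: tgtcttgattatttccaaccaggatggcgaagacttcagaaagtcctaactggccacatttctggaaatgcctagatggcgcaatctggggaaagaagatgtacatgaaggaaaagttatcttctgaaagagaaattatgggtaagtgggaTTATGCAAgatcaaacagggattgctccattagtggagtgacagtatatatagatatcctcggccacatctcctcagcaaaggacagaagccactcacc
A match to TATAAA on either strand was present in 12.4% of 32851 upstream windows of the same length in the mouse table, and a match to TTNNGCAA on either strand in 9.56%. The S100a8 match to TATAAA is on the gene's own strand, for which no separate share was counted. Upstream windows were found for 8 of the 9 genes. Lcn2 and Slpi each held 1 match to TTNNGCAA and none to TATAAA, S100a4 held 1 match to TATAAA, and S100a6 and S100a11 held neither. These matches describe letters, not bound sites.

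Among neutrophils and the named classes of at least 50 cells, S100a8, S100a9, S100a11, Slpi and Lcn2 had their highest level in neutrophils in each of the 3 libraries. Saa3 was highest in fibroblasts and S100a4 in T, NK and innate lymphoid cells in each library. S100a6 was highest in neutrophils of AN-GelMA and GelMA and in pericytes or smooth muscle of untreated, and S100a10 in fibroblasts of AN-GelMA, lymphoid cells of GelMA and macrophages of untreated. The neutrophil class was 1 cluster of 98 cells in AN-GelMA, 88 in GelMA and 38 in untreated. Its leading genes were Cxcl2, S100a9, Srgn, Il1b, S100a8, Ccl3, Hdc, Ccl4, Slpi and Acod1, of which Hdc and Acod1 are on the list of neutrophil markers. Of the 13 markers on that list with a probe, 1 was without a UMI in AN-GelMA, none in GelMA and 3 in untreated.

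**Figure D1:**
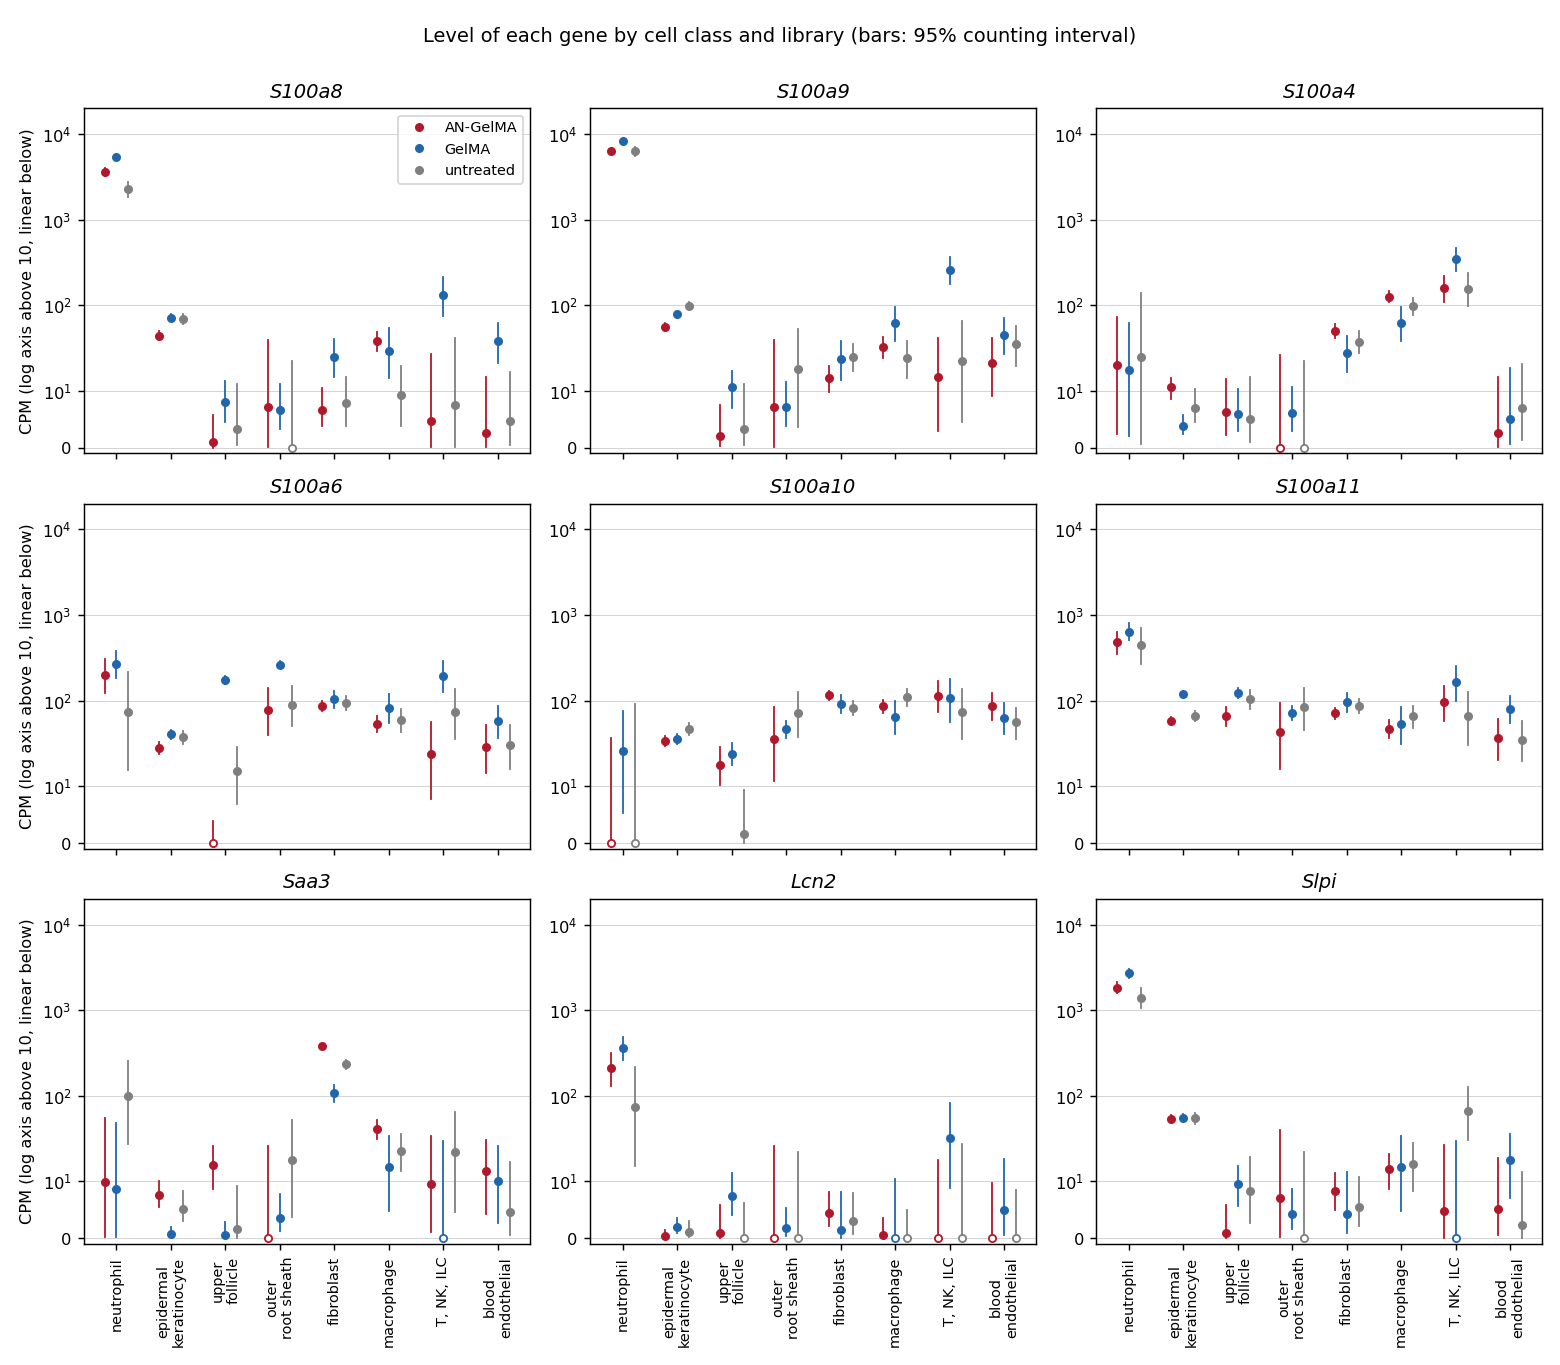
Levels of the 9 genes (vertical axis, CPM, logarithmic above 10 and linear below) in 8 cell classes (horizontal axis) of the AN-GelMA, GelMA and untreated libraries, with points for 1 library each, open points for 0 UMIs and bars for the exact 95% counting interval. S100a8, S100a9, S100a11, Slpi and Lcn2 stand highest in neutrophils and Saa3 in fibroblasts, while S100a10 is at 0 UMIs in the neutrophils of AN-GelMA and untreated.

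In neutrophils S100a8 stood at 3587 CPM in AN-GelMA (360 UMIs), 5437 CPM in GelMA (628 UMIs) and 2257 CPM in untreated (91 UMIs). S100a9, its partner in calprotectin, stood at 6318, 8269 and 6323 CPM in AN-GelMA, GelMA and untreated. As summed levels, both were highest in the GelMA library. Slpi was also highest in GelMA, at 1833 CPM in AN-GelMA, 2710 in GelMA and 1413 in untreated, as was Lcn2 at 209, 364 and 74.4 CPM, the last from 3 UMIs. Neutrophils were 1.08% of the cells of AN-GelMA, 0.823% of GelMA and 0.664% of untreated, yet they held 49.1%, 50.5% and 22.5% of all S100a8 UMIs and 57.2%, 57.7% and 35.0% of all S100a9 UMIs in those libraries. They held 33.1% of the Slpi UMIs in AN-GelMA, 41.1% in GelMA and 18.8% in untreated.

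Most neutrophils carried RNA of both calprotectin subunits. A UMI of S100a8 was found in 75.5% of neutrophils in AN-GelMA, 70.5% in GelMA and 63.2% in untreated, and one of S100a9 in 81.6%, 72.7% and 79.0%. In blood endothelial cells, which should lack these genes, S100a8 was found in 0.281%, 0.941% and 0.512% of cells and S100a9 in 1.40%, 1.41% and 2.30%. The median depth was 720, 868.5 and 812 UMIs in neutrophils and 919.5, 800 and 901 UMIs in blood endothelial cells of AN-GelMA, GelMA and untreated. With every cell thinned to 500 UMIs, S100a8 was found in 61.9%, 59.1% and 54.1% of neutrophils. Both genes were found together in 69 of 98 neutrophils in AN-GelMA, 55 of 88 in GelMA and 24 of 38 in untreated.

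A few cells carried much of the RNA. In AN-GelMA the neutrophil with the most had 23 S100a8 UMIs, in GelMA 82 and in untreated 12, while the median neutrophil had 2, 2 and 1. The 3 neutrophils richest in S100a8 held 17.2% of the class's S100a8 UMIs in AN-GelMA and 33.1% in GelMA. For S100a9 the median neutrophil had 5 UMIs in AN-GelMA, 3.5 in GelMA and 4.5 in untreated, so GelMA was lowest by the median. The 3 neutrophils richest in S100a9 held 17.7%, 31.3% and 27.45% of its UMIs. Without the richest cell S100a9 stood at 5926, 7082 and 6466 CPM in AN-GelMA, GelMA and untreated. Slpi was found in 51.0%, 52.3% and 44.7% of neutrophils of AN-GelMA, GelMA and untreated, and Lcn2 in 12.2%, 21.6% and 5.26%.

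**Figure D2:**
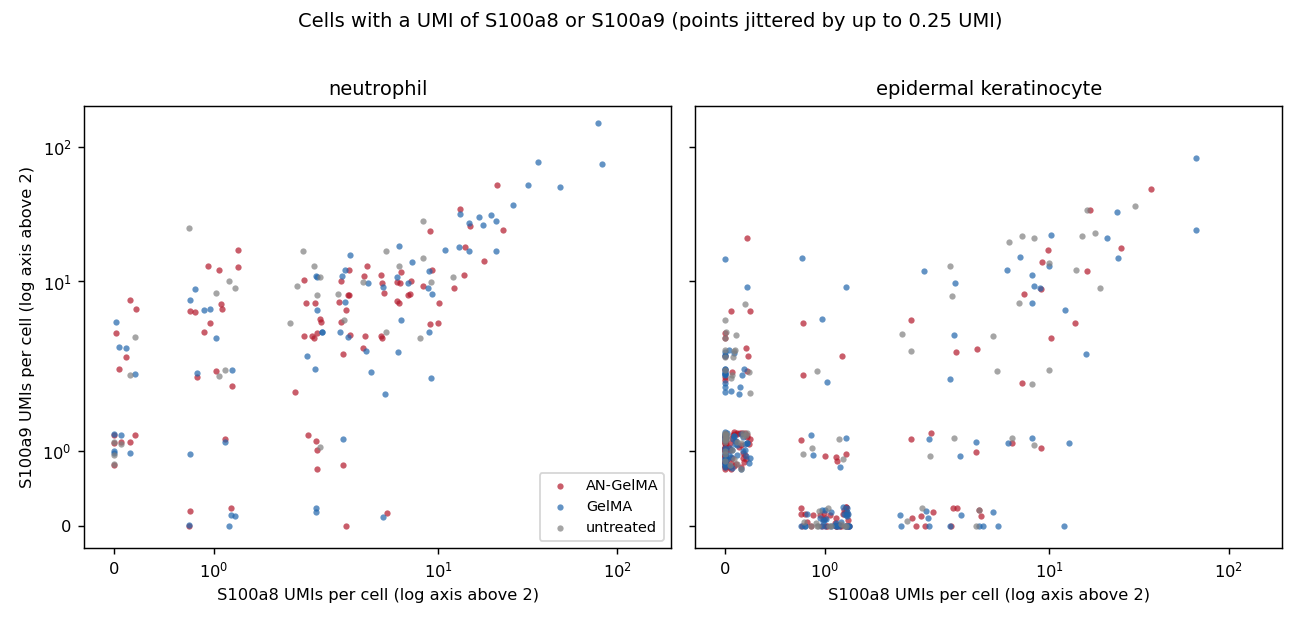
UMIs of S100a8 (horizontal axis) and S100a9 (vertical axis) per cell, both logarithmic above 2, for neutrophils and epidermal keratinocytes with a UMI of either gene, coloured by library and jittered. At 5 UMIs or more, neutrophils number 28 in AN-GelMA, 30 in GelMA and 8 in untreated for S100a8, and 50, 38 and 19 for S100a9. Not all neutrophils rich in S100a9 are thus rich in S100a8. The richest neutrophils, with up to 82 S100a8 and 149 S100a9 UMIs, are from GelMA.

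In neutrophils of AN-GelMA, S100a8 and Lcn2 were called lower than in those of GelMA. They were 2 of the 6 genes that could be compared, where 46.5% of all 2869 genes compared were past that ratio in either direction, so the calls do not set these genes apart. The other 4 also stood below their GelMA level without being called. S100a8 was 1.52 times lower (log2 ratio -0.60, interval -0.79 to -0.41) and Lcn2 1.74 times lower (-0.80, interval -1.63 to -0.01). The ratios of Slpi (-0.56, interval -0.83 to -0.30) and S100a9 (-0.39, interval -0.54 to -0.24) did not reach it, nor did those of S100a11, at 478 against 641 CPM, and S100a6, at 199 against 268 CPM. Without the richest cell of each gene in each library 1 of the 6 was past the ratio, with cells thinned to 500 UMIs none was, and with each cell classed from its own markers 2 genes were higher and 6 lower. The summed neutrophil markers ran the other way, at 14540 CPM in AN-GelMA and 8927 CPM in GelMA, and their part in the result was not tested. With the classes as reported, the 38 neutrophils of the untreated library were too few for a ratio.

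The listed receptors and partners, of which only some act with calprotectin, were not lowered together in these cells. Of the 16 listed receptors and partners, 8 could be compared between AN-GelMA and GelMA neutrophils, with 4 higher and 3 lower and a median log2 ratio of 0.31, again beside 46.5% of all genes past the ratio. Cd14, the lipopolysaccharide co-receptor of TLR4, stood at 638 CPM in AN-GelMA and 2113 CPM in GelMA (log2 ratio -1.73). Slc22a17, described as a receptor of lipocalin 2, stood at 79.7 and 190.5 CPM (-1.26), and Plaur, the urokinase receptor, at 1375 and 2312 CPM (-0.75). Over whole libraries Slc22a17 stood at 224 CPM in AN-GelMA and 164 CPM in GelMA. The part of free RNA in its neutrophil level was not tested. Anxa2, the partner of S100A10, was higher at 668 against 416 CPM (0.68). Of the listed inducers, meaning cytokines and signalling genes that switch such genes on, 15 of 21 could be compared, with 7 higher and 1 lower, a share near the 46.5% of all genes, and a median log2 ratio of 0.56 where all genes had 0.06. Cebpd, a C/EBP transcription factor, Il17ra, the interleukin 17 receptor, and Socs3, a feedback inhibitor of cytokine signalling, had log2 ratios of 1.66, 1.64 and 1.53, and Tnf had -1.02. Haptoglobin (Hp) at 488 against 190.5 CPM and Lrg1 at 448 against 182 CPM were the 2 higher genes among the 5 comparable acute phase and antimicrobial genes, whose median was 0.33.

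Most calprotectin RNA of the epidermis lay in 1 cluster of keratinocytes. Epidermal keratinocytes numbered 3196 in AN-GelMA, 2340 in GelMA and 1800 in untreated, in 5 clusters named here by leading genes: basal cells (Col17a1 and Lamb3, of the anchoring hemidesmosome), Krt1 and Clca3a2 cells, Krt1 and Hal cells, Flg and Casp14 cells of the granular layer, and Lor and Lce1m cells. The Krt1 and Hal cluster, which also carried Krt16 and Krt77, made up 12.7% of keratinocytes in AN-GelMA, 19.2% in GelMA and 14.4% in untreated. It held 83.5%, 65.6% and 91.1% of the keratinocyte S100a8 UMIs and 61.6%, 54.9% and 83.2% of the S100a9 UMIs in those libraries. Its S100a8 level was 160 CPM in AN-GelMA, 147 CPM in GelMA and 254 CPM in untreated, and its S100a9 level was 149, 134 and 334.5 CPM. Untreated was the highest library for both, and the counting intervals of the gel libraries did not reach it. Those intervals leave out the spread over cells. The richest cell of the cluster held 37 of 218 S100a8 UMIs in AN-GelMA, 66 of 281 in GelMA and 30 of 215 in untreated.

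Within that cluster AN-GelMA and GelMA did not differ by 1.5 times, and both stood below untreated. For S100a8 the log2 ratio was 0.13 for AN-GelMA over GelMA (interval -0.13 to 0.39), -0.79 for GelMA over untreated (-1.05 to -0.53) and -0.66 for AN-GelMA over untreated (-0.94 to -0.39). For S100a9 these ratios were 0.15, -1.32 and -1.17. A UMI of S100a8 was found in 9.36% of the cluster's cells in AN-GelMA, 8.67% in GelMA and 11.6% in untreated, at median depths of 2442, 3486 and 2390 UMIs, and after thinning to 500 UMIs in 4.19%, 4.22% and 6.95%. Slpi, at a lower level here than in the granular cells, was lower in AN-GelMA than in either other library, with log2 ratios of -1.66 over GelMA and -1.98 over untreated. A single cell held 43 of the 89 Slpi UMIs of GelMA and another 15 of the 49 of untreated, and without the richest cell of each library the ratios were -1.03 (interval -1.95 to -0.18) and -1.77.

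Within this layer calprotectin RNA sat in few cells, which carried the keratins of injured epidermis. Epidermal keratinocytes with at least 5 UMIs of S100a8 or S100a9 numbered 18 in AN-GelMA, 28 in GelMA and 21 in untreated, and 53 of these 67 were in the Krt1 and Hal cluster. Over the 3 libraries together, those 53 cells had Krt6a, a keratin of wounded and hyperproliferative epidermis, at 4725 CPM, against 1009 CPM in the other 1062 cells of the cluster. Krt6b stood at 1080 against 172 CPM, Krt16 at 4442 against 1375 CPM, Krt17 at 1595 against 552 CPM and the envelope precursor Sprr1b at 2299 against 516 CPM. The differentiation keratins ran the other way, with Krt1 at 2446 against 21680 CPM, Krt10 at 200.4 against 3380 CPM and filaggrin (Flg) at 2225 against 12840 CPM. Each of these 8 differences had the same direction in all 3 libraries. Of 4 further genes compared, loricrin (Lor) stood at 204.5 against 311 CPM, Il36g at 319 against 154 CPM, Il36a at 4.09 against 12.9 CPM and Mxd1 at 773 against 215 CPM. The libraries were not alike for all of them. Lor stood at 447.5 against 390 CPM in GelMA, opposite to the pooled direction. Mxd1 stood at 1293 against 152.5 CPM in GelMA and at 379 against 333 CPM in untreated. The Il36a level in the 53 cells was from 1 UMI. The median depth was 3345 UMIs in the 53 cells and 2826 UMIs in the others. Cells were picked by their S100 counts and the 12 genes were chosen with these data known, so the values are a description.

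Most of these cells had no UMI of the neutrophil genes searched. A UMI of Csf3r, Cxcr2, Retnlg, Ly6g, Mmp8 or Hdc was found in 10 of the 67, against 110 of 117 neutrophils with as much S100a8 or S100a9. These genes are among the markers from which the neutrophils were named, so the high share in neutrophils follows from the naming. Any listed neutrophil marker other than Mxd1 was found in 16 of the 67. The share in the other keratinocytes is not given. The balance within the pair also differed between neutrophils and the Krt1 and Hal cluster. S100a8 was 51.9% of the pair's UMIs in that cluster of AN-GelMA, 52.2% in GelMA and 43.2% in untreated. In neutrophils it was 36.2%, 39.7% and 26.3%, and over all epidermal keratinocytes 44.3%, 47.8% and 41.0%. In the Flg and Casp14 cluster it was 11.4%, 42.8% and 33.3%, and in basal cells 40.0%, 39.4% and 14.3%, on fewer UMIs. The share was thus not above that of neutrophils in every keratinocyte cluster. Because probes differ in efficiency, that share is read between cells and not as a ratio of molecules.

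Over all epidermal keratinocytes the comparison of AN-GelMA with GelMA gave 2 genes higher and 2 lower among the 8 that could be compared, where 24.6% of 12104 genes were past the ratio. S100a11, a partner of annexin A1 in the cornified envelope, stood at 57.4 CPM in AN-GelMA, 119 CPM in GelMA and 65.9 CPM in untreated. GelMA was the high library, with log2 ratios of -1.05 for AN-GelMA over GelMA (interval -1.24 to -0.86) and 0.85 for GelMA over untreated (0.63 to 1.07), while AN-GelMA over untreated was -0.20. GelMA was highest in each cluster but the Lor and Lce1m one, and the level was highest in the Krt1 and Clca3a2 cluster, at 85.7 CPM in AN-GelMA, 191 in GelMA and 80.0 in untreated. S100a8 over all keratinocytes stood at 44.1 CPM in AN-GelMA, 71.7 CPM in GelMA and 68.5 CPM in untreated, and S100a9 at 55.4, 78.4 and 98.8 CPM. For S100a8 the log2 ratio of AN-GelMA over GelMA was -0.70, and it turned to 0.36 when cells with a UMI of any neutrophil marker other than Mxd1 were left out.

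Among the keratinocytes rich in S100a8 or S100a9, such a marker was found in 3 of 18 in AN-GelMA, 10 of 28 in GelMA and 3 of 21 in untreated. In the Flg and Casp14 cluster S100a8 stood at 9.95 CPM in AN-GelMA, 113 CPM in GelMA and 24.8 CPM in untreated, and 66 of the 121 UMIs in GelMA were from 1 cell. For S100a9 there, 83 of the 162 UMIs in GelMA were from 1 cell. The part of neutrophil RNA in the S100a8 of GelMA keratinocytes was not tested.

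GelMA over untreated gave 1 higher and 2 lower of 8 (background 23.9%), and AN-GelMA over untreated 1 higher and 2 lower of 8 (background 7.62%). The 3 comparisons share libraries and are not independent. S100a8 and S100a9 were the 2 lower genes of AN-GelMA over untreated, with log2 ratios of -0.64 (interval -0.90 to -0.38) and -0.83 (-1.06 to -0.61), and without the Krt1 and Hal cluster these turned to 0.22 and 0.33. S100a4 was higher in AN-GelMA than in untreated keratinocytes at 10.98 against 6.97 CPM, from 65 and 24 UMIs, with an interval that included no difference, and its log2 ratio turned to -0.10 with each cell classed from its own markers. Saa3 was called in keratinocytes, at 7.60 CPM in AN-GelMA, 0.838 in GelMA and 5.23 in untreated, but a UMI of it was found in 1.25%, 0.214% and 0.944% of keratinocytes and in 1.12%, 0.706% and 0.512% of blood endothelial cells. The keratinocyte share was above the endothelial one in AN-GelMA and untreated and below it in GelMA. With cells thinned to 500 UMIs the shares were 0.313%, 0.043% and 0.278% in keratinocytes and 0.845%, 0.471% and 0.256% in endothelial cells, on 10, 1 and 5 keratinocytes. The part of free RNA in these calls was not tested.

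Most keratinocyte Slpi lay in a different cluster from most calprotectin, although cells rich in them overlapped. Its level over all keratinocytes was 53.5 CPM in AN-GelMA, 54.6 CPM in GelMA and 54.9 CPM in untreated, and the interval of AN-GelMA over GelMA allowed log2 ratios of -0.26 to 0.20. The Flg and Casp14 cells of the granular layer held 89.0%, 62.3% and 61.9% of the keratinocyte Slpi UMIs, at 312 CPM in AN-GelMA, 190 CPM in GelMA and 263 CPM in untreated. There AN-GelMA was higher than GelMA (log2 ratio 0.71, interval 0.45 to 0.98). Of 36 keratinocytes with at least 5 Slpi UMIs, 29 were in this cluster. As much Slpi was found in 13 of the 67 keratinocytes rich in S100a8 or S100a9. By library these were 2 of 18 in AN-GelMA, 7 of 28 in GelMA and 4 of 21 in untreated. Among all epidermal keratinocytes of those libraries it was found in 13 of 3196, 11 of 2340 and 12 of 1800. The share was thus higher among the cells rich in calprotectin RNA in each library, and this overlap was not tested. Lcn2 was scarce in keratinocytes, with 3, 12 and 4 UMIs in AN-GelMA, GelMA and untreated, of 40, 115 and 23 in the whole libraries. In GelMA 20 of the Lcn2 UMIs were in sebocytes, at 44.4 CPM.

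Several other S100-type genes were higher in keratinocytes of GelMA than in those of either other library. Of the 12 other S100-type genes listed, 8 could be compared in keratinocytes, and 6 were lower in AN-GelMA than in GelMA and none higher (24.6% of all genes either way), with a median log2 ratio of -0.85 against 0.00 for all genes. GelMA over untreated gave 5 higher and none lower of 8 (23.9% of all genes either way), with a median of 0.75 against -0.03. S100a3, a protein of the hair cuticle, stood at 0.845 CPM in AN-GelMA, 20.6 in GelMA and 2.32 in untreated, Tchhl1, a trichohyalin relative, at 0.169, 12.6 and 1.45 CPM, and S100a7a at 0.845, 15.2 and 5.81 CPM. Hair matrix or shaft cells were 0.550% of cells in AN-GelMA, 13.03% in GelMA and 2.38% in untreated, and their part in these levels was not tested. Among the inducers in keratinocytes, 1 was higher and 4 lower of 16 in AN-GelMA over GelMA (median -0.24), and 4 higher and 1 lower of 16 in GelMA over untreated (median 0.31). Il36a, an epidermal interleukin 1 family cytokine, stood at 50.8 CPM in AN-GelMA, 84.4 CPM in GelMA and 22.1 CPM in untreated, Cebpb at 254, 397 and 216 CPM, and Il1b at 33.8, 17.1 and 28.5 CPM. Among receptors and partners 2 were higher and 2 lower of 12 in AN-GelMA over GelMA (median -0.17), and 1 higher and 2 lower of 11 in GelMA over untreated (median -0.16). Plaur stood at 11.8, 5.70 and 16.6 CPM and Slc22a17 at 207, 127 and 213.5 CPM, both lowest in GelMA. Acute phase and antimicrobial genes gave 2 higher and 1 lower of 10 in AN-GelMA over GelMA (median -0.16), where Lbp stood at 5.74 CPM in AN-GelMA, 1.84 CPM in GelMA and 6.10 CPM in untreated and the beta-defensin Defb6 at 39.2, 62.0 and 49.4 CPM.

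Saa3, unlike the other 8 genes, had its highest level in fibroblasts in each library, and it was lowest in GelMA. Fibroblasts numbered 2023 in AN-GelMA, 647 in GelMA and 1063 in untreated and held 86.2%, 64.9% and 82.1% of the Saa3 UMIs. Their Saa3 level was 379 CPM in AN-GelMA (921 UMIs), 108 CPM in GelMA (74 UMIs) and 234 CPM in untreated (299 UMIs). GelMA was the lowest library, with log2 ratios of 1.81 for AN-GelMA over GelMA (interval 1.47 to 2.18), -1.12 for GelMA over untreated (-1.50 to -0.75) and 0.70 for AN-GelMA over untreated (0.51 to 0.89). A Saa3 UMI was found in 168 of 2023 fibroblasts in AN-GelMA, 11 of 647 in GelMA and 64 of 1063 in untreated, which are 8.30%, 1.70% and 6.02%. After thinning to 500 UMIs the shares were 6.28%, 1.39% and 4.05%, at median depths of 1019, 871 and 1046 UMIs. Over whole libraries Saa3 stood at 81.2, 5.72 and 43.5 CPM in AN-GelMA, GelMA and untreated, values in which cell numbers and RNA per cell cannot be told apart.

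Most of this Saa3 was in 1 of 3 fibroblast clusters. The Nos2 and Tnfaip6 cluster, led by genes of inducible nitric oxide synthase and of an inflammation-induced hyaluronan-binding protein, was 18.7% of fibroblasts in AN-GelMA (378 cells), 2.78% in GelMA (18 cells) and 17.7% in untreated (188 cells). It held 82.8%, 74.3% and 88.0% of the fibroblast Saa3 UMIs, and the Col3a1 and Col1a1 cluster 13.03%, 25.7% and 7.69%. Saa3 was among the cluster's 10 leading genes although it was not used to build it. Within the cluster the level was 1442 CPM in AN-GelMA, 1704 CPM in GelMA and 1111 CPM in untreated, so the library with the lowest fibroblast level was not low there, on 18 cells. In GelMA 2 of those 18 cells held 63.6% of the cluster's Saa3 UMIs. The log2 ratio of AN-GelMA over untreated within the cluster was 0.38 (interval 0.17 to 0.58), short of 1.5 times. Not every cell of the cluster carried it: a Saa3 UMI was found in 112 of 378, 7 of 18 and 46 of 188 cells of AN-GelMA, GelMA and untreated, and the richest cells had 33, 21 and 38 UMIs.

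Outside that cluster a difference remained between AN-GelMA and the other libraries. In the Col3a1 and Col1a1 fibroblasts Saa3 stood at 115 CPM in AN-GelMA, 48.2 CPM in GelMA and 43.8 CPM in untreated, and in the Col1a1 and Col1a2 fibroblasts at 44.2 CPM, 0 CPM and 25.2 CPM. In the first of these, 1 cell held 11 of the 19 UMIs of GelMA, and in the second 1 cell held 11 of the 13 of untreated. Without the Nos2 and Tnfaip6 cluster the log2 ratio of fibroblast Saa3 was 1.52 for AN-GelMA over GelMA, 1.27 for AN-GelMA over untreated and -0.25 for GelMA over untreated. Macrophages carried Saa3 at 40.9, 14.6 and 22.6 CPM in AN-GelMA, GelMA and untreated, with the same order of libraries, and a UMI in 2.87%, 1.04% and 1.69% of cells.

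**Figure D3:**
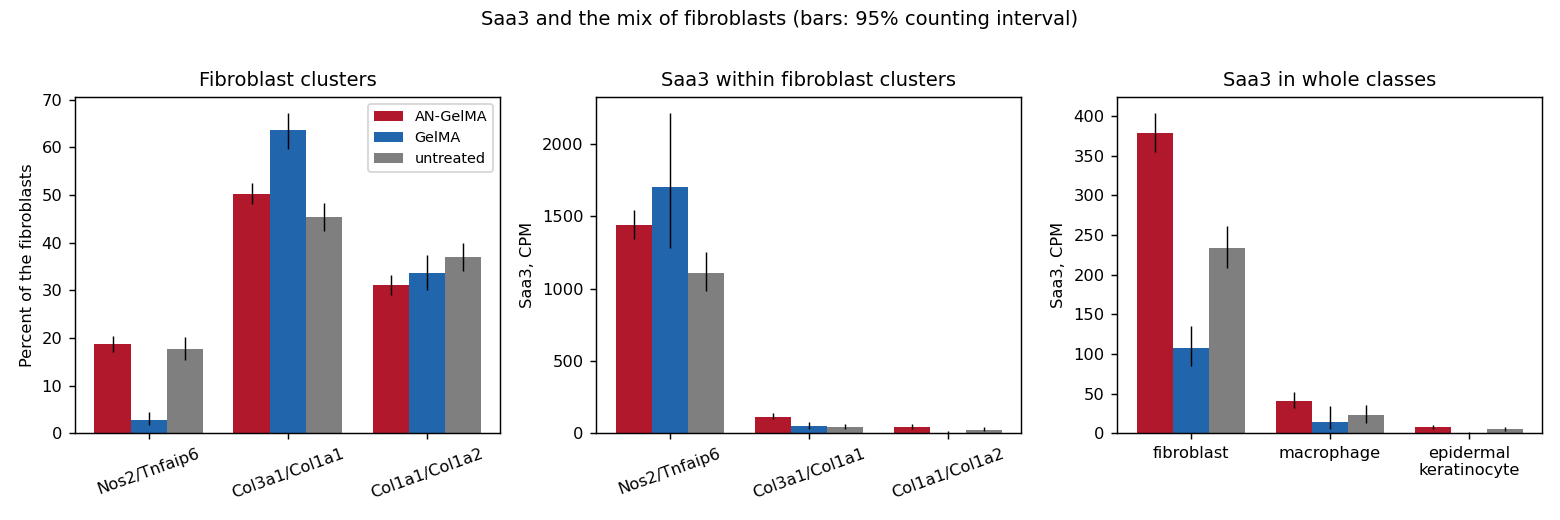
Share of fibroblasts in each of 3 clusters (left, percent), Saa3 level within those clusters (middle, CPM) and Saa3 level in whole classes (right, CPM) for the AN-GelMA, GelMA and untreated libraries, with bars for 1 library each and exact 95% intervals. The Nos2 and Tnfaip6 cluster is small in GelMA at 2.78% of fibroblasts, while its Saa3 level of 1704 CPM there is not below the other libraries. That level rests on 18 cells, of which 2 hold 63.6% of the UMIs.

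In fibroblasts 8 of the 9 genes could be compared between AN-GelMA and GelMA, with 3 higher and 2 lower, where 27.9% of 10672 genes were past the ratio. Besides Saa3, S100a4, known in mice as fibroblast-specific protein 1, was higher at 50.2 CPM in AN-GelMA and 27.7 CPM in GelMA (log2 ratio 0.86, interval 0.15 to 1.64). The others rested on few UMIs: S100a8 from 16 UMIs in AN-GelMA and 17 in GelMA, S100a9 from 34 and 16, and Slpi from 20 and 3. A UMI of S100a8 was in 0.791% of AN-GelMA and 1.55% of GelMA fibroblasts, against 0.281% and 0.941% of blood endothelial cells, on 16 and 10 fibroblasts and 1 and 4 endothelial cells, and the part of free RNA was not tested. GelMA over untreated gave 1 higher and 1 lower of 7 (background 26.2%) and AN-GelMA over untreated 2 higher and 1 lower of 8 (background 11.3%). S100a6, S100a10 and S100a11 did not differ by 1.5 times in any of the 3 comparisons.

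Of the listed inducers 14 could be compared in fibroblasts of AN-GelMA over GelMA, with 5 higher and none lower, beside 27.9% of all genes past the ratio either way, and a median log2 ratio of 0.43 against -0.10 for all genes, and in AN-GelMA over untreated 3 of 15 were higher and none lower, beside 11.3%. Csf3, which encodes the neutrophil growth factor G-CSF, stood at 16.5 CPM in AN-GelMA, 1.46 CPM in GelMA and 14.1 CPM in untreated, from 40, 1 and 18 UMIs. Socs3 stood at 221, 99.1 and 119 CPM, Il17ra at 240.4, 114 and 240.1 CPM and Nfkbiz, a nuclear cofactor of interleukin 17 responses, at 267, 140 and 211 CPM. Il6 did not follow this order, at 88.1 CPM in AN-GelMA, 91.8 CPM in GelMA and 46.2 CPM in untreated. Of 5 comparable acute phase genes 2 were higher and 1 lower in AN-GelMA over GelMA (median 0.08), and Hp stood at 30.9, 5.83 and 18.0 CPM and Lbp, the lipopolysaccharide-binding protein, at 325, 194 and 249.5 CPM, both in the order of Saa3. Anxa2 at 654, 357 and 543 CPM and Anxa1 at 286, 168 and 245 CPM, which encode the annexins bound by S100A10 and S100A11, were also lowest in GelMA, among receptors and partners of which 2 were higher and none lower of 11 in AN-GelMA over GelMA (median -0.09).

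**Figure D4:**
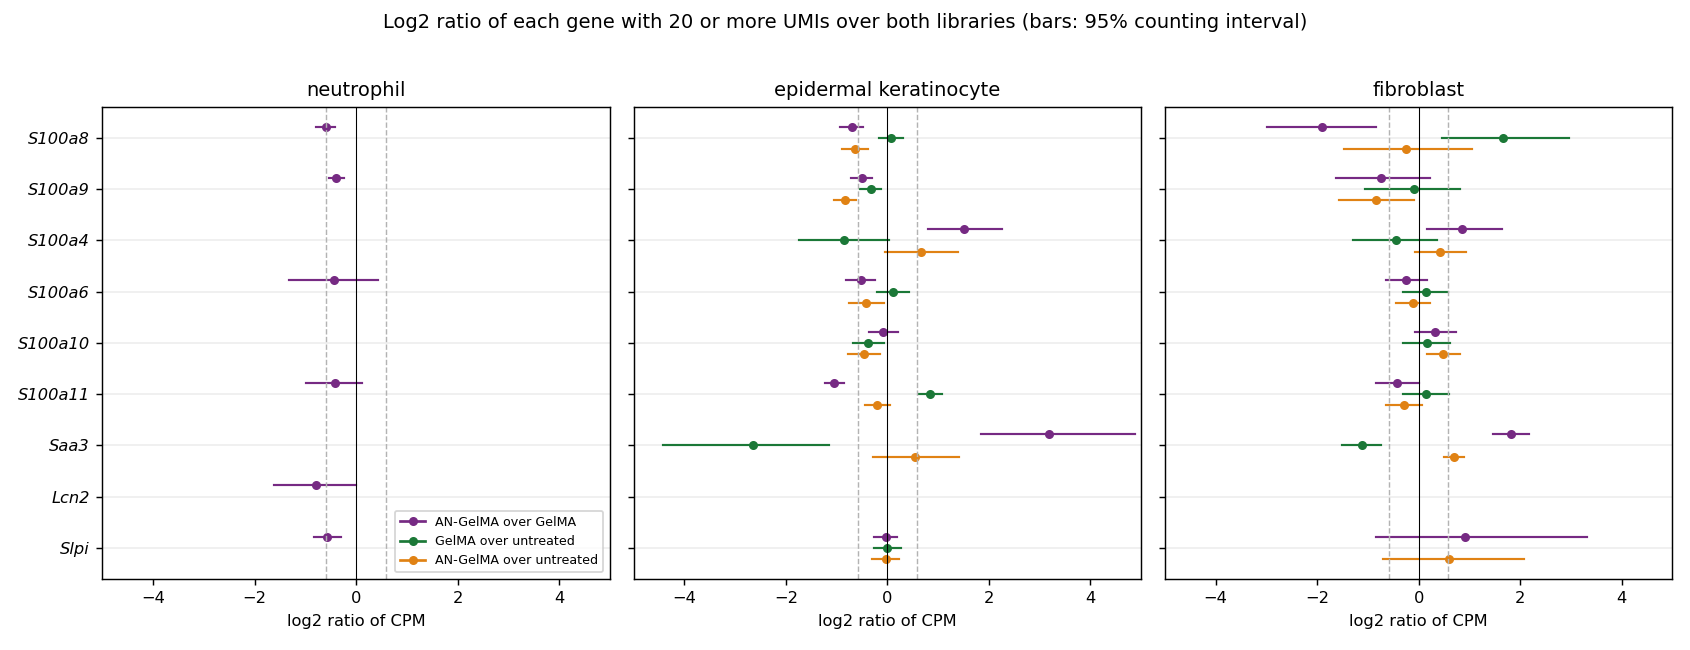
Log2 ratio of CPM (horizontal axis) of each gene (vertical axis) in neutrophils, epidermal keratinocytes and fibroblasts for AN-GelMA over each other library and for GelMA over untreated, for genes with at least 20 UMIs over both libraries, with exact 95% counting intervals and dashed lines at 1.5 times. Saa3 lies furthest right for AN-GelMA over GelMA in keratinocytes (3.18) and fibroblasts (1.81), and all 6 genes shown in neutrophils lie left of 0.

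The S100 genes that are not calprotectin had other patterns over the cells. Among the named classes S100a4 was highest in T, NK and innate lymphoid cells, at 157 CPM in AN-GelMA, 350 CPM in GelMA and 156 CPM in untreated. Macrophages came next, at 126, 61.5 and 97.2 CPM. The order of libraries was opposite in these classes: AN-GelMA over GelMA was -1.16 (interval -1.85 to -0.47) in the lymphoid cells and 1.03 (0.38 to 1.76) in macrophages, and the difference between the classes was not tested. An unnamed cluster led by H2-Ab1 and H2-M2 had S100a4 at 125, 261 and 154 CPM in AN-GelMA, GelMA and untreated. It stood above macrophages in GelMA and untreated, and was highest in GelMA like the lymphoid cells. Neutrophils had 2, 2 and 1 UMIs of S100a4. S100a6, also called calcyclin, stood at 78.1 CPM in AN-GelMA, 261 CPM in GelMA and 89.4 CPM in untreated in the outer root sheath. In the Cst6 and Defb6 cluster of the upper follicle it had 316 UMIs in GelMA (233 CPM) and none in AN-GelMA or untreated, which is at least 11.4 times lower in AN-GelMA with the floor of 3 UMIs per library. In epidermis S100a6 was a basal gene: the basal cluster held 74.5% of keratinocyte S100a6 in AN-GelMA, 45.8% in GelMA and 82.0% in untreated. S100a10 was basal too, with 65.0%, 64.8% and 68.8%, at 65.8 CPM in AN-GelMA, 114 CPM in GelMA and 93.7 CPM in untreated.

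Some calprotectin RNA lay outside neutrophils and epidermis. In GelMA the T, NK and innate lymphoid cells had 16 UMIs of S100a8 and 32 of S100a9, at 130 and 260 CPM, where AN-GelMA had 1 and 3 UMIs and untreated 1 and 3. A single cell held 10 of the 16 and a single cell 18 of the 32. Macrophages had S100a8 at 37.7 CPM in AN-GelMA, 29.3 CPM in GelMA and 9.32 CPM in untreated, with a UMI in 1.498%, 1.30% and 1.08% of cells. In the skeletal muscle cells of GelMA there were 35 Slpi UMIs, against 0 in AN-GelMA and 1 in untreated, and 11 of the 35 were in 1 cell. These values rest on few UMIs.

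Over 39 sums of a class and a library with at least 50 cells, and among 11782 genes, the gene whose log2(CPM + 10) was most like that of S100a8 was S100a9 (Pearson r = 0.904), followed by Csrnp1 (0.892) and Cstdc4 (0.858). After S100a8, S100a9 was most like Csrnp1 (0.893) and Mcemp1 (0.866). Slpi was most like Hcar2 (0.930), Il1r2 (0.897) and Sertad1 (0.891). Saa3 was most like Shc2 (0.869), Lgi4 (0.853) and Lrrc17 (0.850), and S100a4 most like Pik3cd (0.886), Dock10 (0.848) and Kcnab2 (0.844). The closest genes to S100a6, S100a10 and S100a11 were less alike, at Zyx (0.690), Prkd3 (0.764) and Snx18 (0.749). Sums of 1 library share its depth and its free RNA, so these are descriptions with no p-value.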

How the data were processed

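Fixed cells of 3 wounds were profiled with probes, and UMI counts per gene and barcode were deposited by the authors as raw whole numbers, with software version 10.0.0 per the file headers, and with Cell Ranger on GRCm39 per the submitters' processing notes. Tables held 14156692 UMIs for AN-GelMA, 21613482 for GelMA and 8945496 for untreated. Barcodes under 400 UMIs, under 250 genes or above 10% mitochondrial UMIs were dropped. Scrublet called no doublets, so the 5% of cells with the highest doublet scores per library were removed. Cells were clustered together with Scanpy 1.11.5 (Leiden, resolution 1), leaving out all S100 and serum amyloid genes, and clusters were named from listed markers. The 9 genes and the lists were chosen with earlier results of these data known. Counts were summed per class and library. CPM have exact Poisson intervals, shares Clopper-Pearson intervals, ratios exact intervals given the total count, each at 95%, from SciPy 1.17.1. A count of 0 was taken as 3 UMIs in ratios, which gives a bound. Classes were compared with at least 50 cells in both libraries. Named pathway genes are the 3 highest and 3 lowest called genes per list whose interval excludes no difference. No test between groups was made, because each group has 1 library. Ratios were checked on simulated counts. Alternatives changed doublet removal, cell filters, depth, genes clustered, resolution, class rule, scaling and call ratio.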

Additional observations from a re-analysis of the deposited data

Results flagged for a closer look

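Some genes moved in opposite directions in different cells under the same comparison. None of these differences between cells was tested, since each group has 1 library. Calprotectin did so between layers of the epidermis: for GelMA over untreated, S100a8 had a log2 ratio of -0.79 in the Krt1 and Hal cluster (147 CPM in GelMA and 254 CPM in untreated) and of 2.19 in the Flg and Casp14 cluster (113 CPM in GelMA and 24.8 CPM in untreated). S100a9 had -1.32 and 1.61 in the same clusters. In the Flg and Casp14 cluster of GelMA a single cell held 66 of the 121 S100a8 UMIs and a single cell 83 of the 162 S100a9 UMIs. Without the richest cell of each library the ratios in that cluster were 1.93 for S100a8 and 1.14 for S100a9.

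Slpi for AN-GelMA over GelMA was 0.71 in the Flg and Casp14 cluster, -1.66 in the Krt1 and Hal cluster and -1.99 in the Lor and Lce1m cluster. Without the richest cell of each library these were 1.11, -1.03 and -2.37, since 1 cell of GelMA held 84 of 203 Slpi UMIs in the first cluster and 1 held 43 of 89 in the second. S100a4 for AN-GelMA over GelMA was 1.51 in epidermal keratinocytes, 0.86 in fibroblasts and 1.03 in macrophages, against -1.16 in T, NK and innate lymphoid cells. The lower level in AN-GelMA was not particular to lymphoid cells, since the unnamed H2-Ab1 and H2-M2 cluster stood at 125 against 261 CPM. S100a8 for AN-GelMA over untreated was -0.64 in epidermal keratinocytes and 2.02 in macrophages, the second at 37.7 CPM in AN-GelMA and 9.32 CPM in untreated from 60 and 7 UMIs. These directions did not hold in all alternatives: the macrophage ratio was -0.28 with each cell classed from its own markers and 0.29 with doublets kept, and the keratinocyte ratio was 0.22 without the Krt1 and Hal cluster.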

How the results depend on the processing

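No paired analysis was possible because no group has replicate libraries. Of 883 recomputed log2 ratios, 809 kept their direction and moved by less than the counting interval, 62 moved further and 12 changed sign. Levels and shares were less stable: 28 of 108 levels and 44 of 108 shares of cells with a UMI moved. The neutrophil class also changed in size. It held 98, 88 and 38 cells in AN-GelMA, GelMA and untreated as reported, 145, 112 and 73 at resolution 2, and 520, 274 and 264 with cells classed by their own markers. The 6 neutrophil ratios of AN-GelMA over GelMA stayed below 0 in all alternatives run, S100a8 between -1.26 and -0.50, and fibroblast Saa3 of AN-GelMA over GelMA stayed between 1.52 and 2.24. A minimum of 1000 UMIs per cell left under 50 neutrophils and was not run for them. For neutrophils of AN-GelMA over GelMA, 2 genes were called as reported, 4 with doublets kept, 0 with cells thinned to 500 UMIs, 1 with the S100 genes allowed in clustering, 6 at resolution 2, 8 (2 higher and 6 lower) with cells classed by their own markers, 0 at a ratio of 2 and 1 without the richest cell. For keratinocytes the number of calls of AN-GelMA over GelMA, 4 as reported, stayed within 1.5 times of that number. The genes called were not always the same: S100a8, which was among them, had log2 ratios of 0.17, 0.39 and 0.36 in the alternatives named below. The 3 of GelMA over untreated became 5 without cells holding any neutrophil marker, 6 when Mxd1 was not counted as one, 1 at a ratio of 2 and 5 without the Krt1 and Hal cluster. The 3 of AN-GelMA over untreated became 0 at a ratio of 2 and 0 without that cluster. For fibroblasts the 5 of AN-GelMA over GelMA became 1 with thinned cells, 2 at a ratio of 2 and 3 without the richest cell. The 2 of GelMA over untreated became 1 with thinned cells, 1 without cells holding any neutrophil marker, 1 when Mxd1 was not counted, 1 without the Nos2 and Tnfaip6 cluster and 4 without the richest cell. The 3 of AN-GelMA over untreated became 0 at a ratio of 2.

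Within keratinocyte and fibroblast clusters and lymphoid cells, 118 ratios were recomputed without the richest cell, and 6 moved past their counting interval. The signs that turned were these. Keratinocyte S100a8 of AN-GelMA over GelMA was 0.17 with cells classed by their own markers, 0.39 without cells holding any neutrophil marker and 0.36 when Mxd1 was not counted. Without the Krt1 and Hal cluster, keratinocyte S100a8 and S100a9 of AN-GelMA over untreated were 0.22 and 0.33. With cells classed by their own markers, keratinocyte S100a4 of AN-GelMA over untreated was -0.10, macrophage S100a9 of GelMA over untreated -0.73 and macrophage S100a8 of AN-GelMA over untreated -0.28. Fibroblast S100a9 of AN-GelMA over GelMA was 0.35 with thinned cells and 0.029 without the richest cell. In macrophages of GelMA over untreated, S100a10 was 0.044 with at least 1000 UMIs per cell and Saa3 0.084 with doublets kept. Leaving out a cluster, the richest cell or cells with a marker other than Mxd1 was chosen after seeing the data. The causes were not tested, and depth limits Lcn2, with 23 to 115 UMIs per library.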

Other observations

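A cluster that stayed unnamed, led by Duxf3 and Vmn1r91, carried S100a8 at 84.9 CPM in AN-GelMA and 137 CPM in untreated, S100a9 at 170 and 198 CPM and S100a11 at 124 and 247 CPM. In the 29 cells of the Flg and Casp14 cluster with at least 5 Slpi UMIs, Krt6a and Krt16 differed from library to library. In the 13 such cells of AN-GelMA, Krt6a stood at 76.2 CPM, against 93.6 CPM in the other cells of the cluster, and Krt16 at 254 against 329 CPM. These rested on 3 Krt6a and 10 Krt16 UMIs in the 13 cells, and both intervals included no difference. In the 7 cells of GelMA, Krt6a stood at 1518 against 299 CPM and Krt16 at 1812 against 356 CPM. In the 9 cells of untreated, Krt6a stood at 2564 against 24.1 CPM, the second from 10 UMIs, and Krt16 at 1586 against 236 CPM. Krt6b was higher in the Slpi-rich cells of each library, in AN-GelMA at 102 against 27.7 CPM on 4 UMIs in the 13 cells. Krt17 had log2 ratios of -3.44 in AN-GelMA, 0.51 in GelMA and -0.22 in untreated. The Slpi-rich cells had the higher median depth in each library, at 2496 against 1856 UMIs in AN-GelMA, 9265 against 3152 in GelMA and 4277 against 1700 in untreated.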
